A study of Mus musculus with 17 samples.

Results

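The 10 genes described here are transcription factors and a secreted inhibitor of the primitive streak and of the anterior mesendoderm, and were taken by name: T (Brachyury), Eomes, Mixl1, Mesp1, Evx1, Gsc, Lhx1, Cer1, Hhex and Prox1. They are 10 of the 53588 gene symbols obtained by summing transcripts. Of these, 19796 had enough counts for testing, 9 of the 10 among them, and Mesp1 did not pass. RNA-seq was done on poly(A) RNA from 5 lines of mouse embryonic stem (ES) cells, each derived from MC1 cells (129S6/SvEvTac). Each line carries, at the Rosa26 locus, 1 forkhead factor tagged C-terminally with His6-FLAG, which doxycycline (Dox) keeps off, together with puromycin resistance. The lines are iFoxA1, iFoxC1, iFoxG1, iFoxL2 and iFoxP3, named for the factor. At 24 h after Dox removal in differentiation medium with 10% serum there were 11 libraries, 3 of iFoxA1 and 2 of each other line. At 0 h, in ES medium with 15% serum, LIF and 0.2 µg/ml Dox, there were 6 libraries, 2 of iFoxA1 and 1 of each other line. The 24 h and 0 h cells therefore differ in transgene expression, medium, serum and LIF together, and these cannot be told apart because no line without a transgene was measured. Whether the replicates came from separate cultures is not stated in the labels; the tests measure only how these libraries spread, which may be technical.

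The primitive streak is the site where epiblast cells of the gastrulating embryo become mesoderm and endoderm, under Wnt, Nodal and BMP signals. Its posterior part gives extraembryonic and lateral mesoderm, marked by T, Evx1 and Mesp1. Its anterior part, with high Nodal signalling and expression of Eomes, Mixl1, Gsc and Lhx1, gives definitive endoderm, prechordal plate and the node. Cer1 and Hhex mark the anterior endoderm, both visceral and definitive, and Prox1 appears later in liver, pancreas, lens and lymphatic cells.

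In these cells, 3 of the genes, Lhx1, Cer1 and Prox1, stood higher at 24 h in iFoxA1 than in the 4 lines with another factor. On average over the 5 lines, Lhx1 and Prox1 rose and Gsc fell between 0 h and 24 h. Evx1 was higher at 24 h in iFoxC1 than in the lines with another factor. T, Eomes, Mixl1 and Hhex passed in none of the tests of the main edgeR fit, on all 17 libraries with low counts filtered and no added term. Of 7 alternatives other than leaving out 1 library, Eomes rose in the average change in 4 and Mixl1 in 1. T was higher at 24 h in iFoxP3 than in the other lines in 4 of these 7. Mesp1 stayed at 6 counts or fewer in every library.

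The 3 genes that stood higher in iFoxA1 lie on different chromosomes, and their promoters are shown here because forkhead factors bind DNA directly. In GENCODE M21, on the mm10 build, Lhx1 spans chr11:84518284-84525535, Cer1 chr4:82881751-82885148 and Prox1 chr1:190118035-190170714, all on the minus strand. The windows below are the 250 bases before the RefSeq start of each gene (GRCm38.p6), written 5′ to 3′ in the direction of transcription. They are chr11:84525535-84525784, minus strand for Lhx1, chr4:82885152-82885401, minus strand for Cer1 and chr1:190170828-190171077, minus strand for Prox1. Capitals mark the forkhead core TGTTT, or AAACA where the core is on the other strand.
Lhx1: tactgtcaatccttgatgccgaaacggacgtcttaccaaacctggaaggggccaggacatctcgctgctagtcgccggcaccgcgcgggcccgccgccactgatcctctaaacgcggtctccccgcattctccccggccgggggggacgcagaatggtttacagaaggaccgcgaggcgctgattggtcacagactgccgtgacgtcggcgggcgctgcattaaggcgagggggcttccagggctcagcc
Cer1: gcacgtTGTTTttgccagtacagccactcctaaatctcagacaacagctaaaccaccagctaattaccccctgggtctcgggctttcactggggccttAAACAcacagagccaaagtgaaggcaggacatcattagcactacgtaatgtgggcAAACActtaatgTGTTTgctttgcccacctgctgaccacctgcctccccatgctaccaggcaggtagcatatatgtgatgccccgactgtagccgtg
Prox1: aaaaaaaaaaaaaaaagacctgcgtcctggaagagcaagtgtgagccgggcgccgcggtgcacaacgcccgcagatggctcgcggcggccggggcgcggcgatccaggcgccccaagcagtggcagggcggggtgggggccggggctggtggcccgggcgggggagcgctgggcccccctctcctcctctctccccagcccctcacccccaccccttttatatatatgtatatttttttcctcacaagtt
The Cer1 window holds 4 copies of the core, while the windows of Lhx1 and Prox1 hold 0. RefSeq windows were found for 9 of the 10 genes. The core is in 4 of these 9 windows, against 46.4% of 32851 windows of the same length before mouse genes. The longer forkhead motif TGTTTAC, which contains the core, was in 0 of the 9 windows and in 3.17% of all windows, with both strands searched. The FOXH1 motif AATNCACA (3.18% of all windows) and the T-box motif TCACACC (3.33%) were also in 0 of 9, and the TCF/LEF motif CTTTGAT (3.21%) was in 1, that of Mesp1. The windows of Lhx1 and Prox1 are 64.8% G or C each and that of Cer1 is 51.6%, against a median of 52.4% over all windows. The RefSeq start of Prox1 lies 113 bases from the GENCODE start, and those of Lhx1 and Cer1 within 3 bases.

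Library totals were 17.7 to 37.2 M estimated counts. The 11 libraries at 24 h fall into a second set of 5 deeper libraries (replicate 3 of iFoxA1 and replicate 2 of each other line, 32.9 to 37.2 M), where the annotated microRNA gene Mir6236 had 31760 to 57880 TPM, and a first set of 6, which with all 6 libraries at 0 h had 742 to 2544 TPM. No 0 h library belongs to the second set. Within iFoxA1 at 24 h, Foxa1 itself was at 76.8 CPM in the second-set library and averaged 244.4 CPM in the 2 of the first set, and Foxl2 in iFoxL2 was at 11.5 CPM in the second-set library and 149.3 CPM in that of the first. Pooled ratios below that move by more than 1.5 times without the second set are given with and without it. ES cell markers were present throughout, with 10 of 10 passing the filter. Their summed level was 6259 and 5954 CPM in the second-set libraries of iFoxA1 and iFoxL2, where the transgene was low, 2601 to 3939 CPM in the 9 others at 24 h, and 5410 to 6462 CPM at 0 h. At 24 h these 2 low-transgene libraries thus lay apart from the 9 others, within the range of the 0 h libraries.

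**Figure D1:**
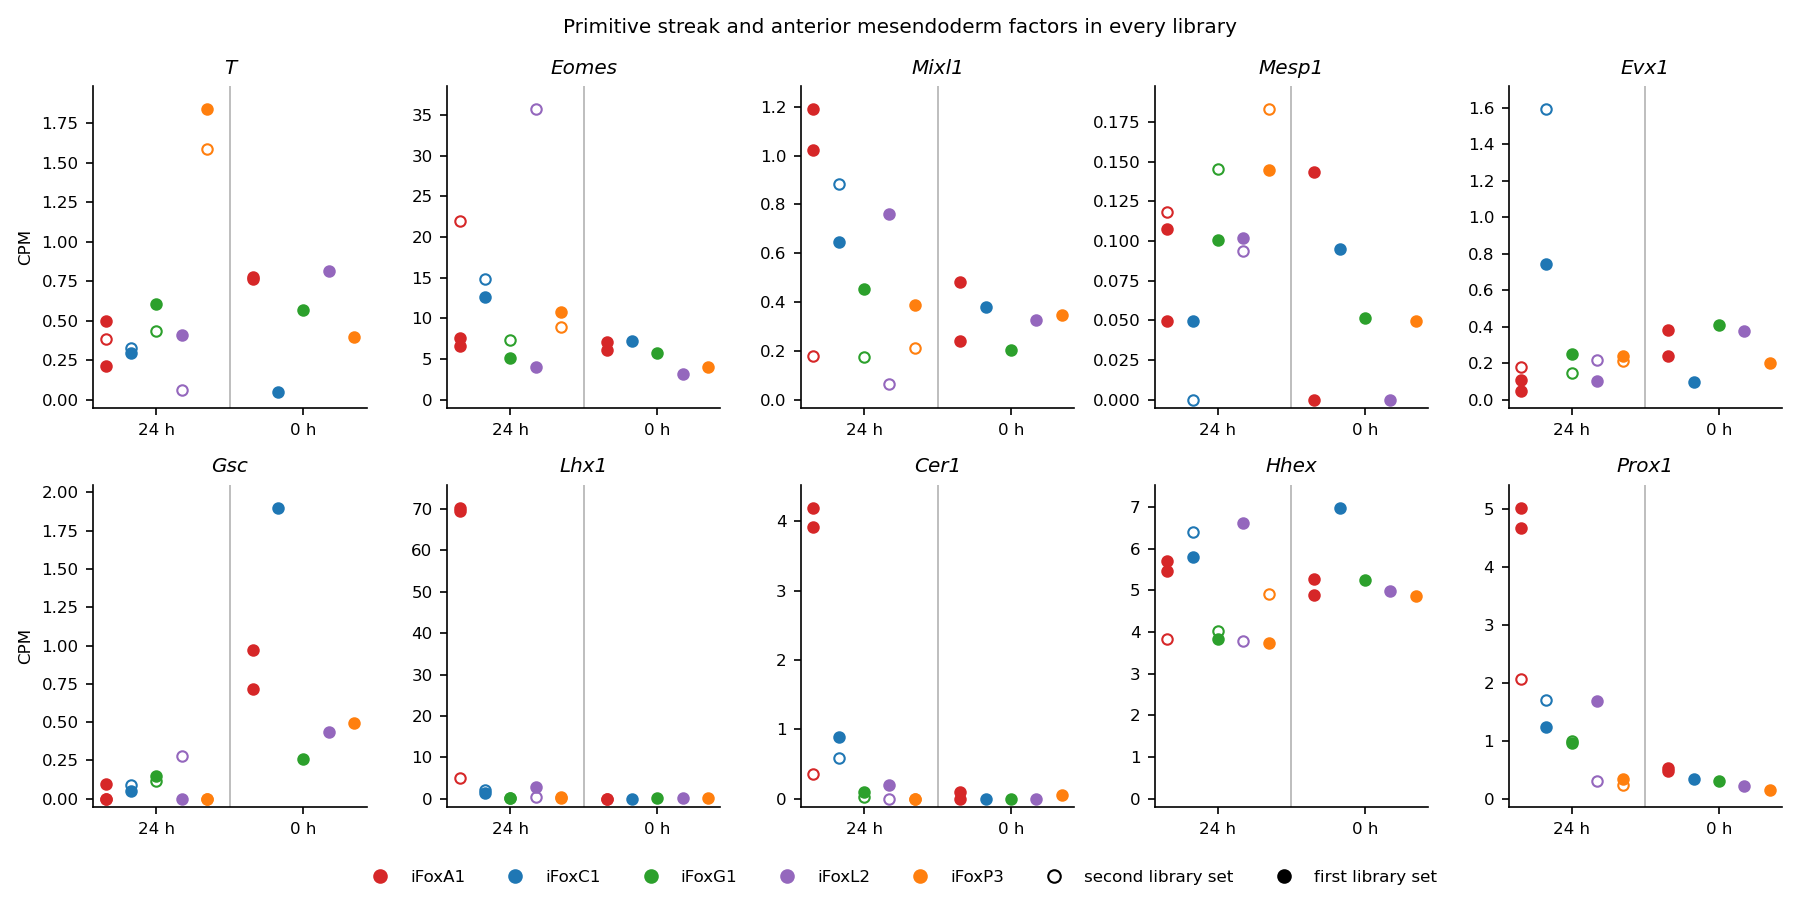
Counts scaled to the library total (CPM) of each of the 10 genes in each of the 17 libraries, with the 24 h libraries left of the 0 h libraries and each line in its own colour. Filled points are the first library set and open points the second; each panel has its own linear scale starting at 0, and Lhx1 reaches 70.2 CPM in iFoxA1 at 24 h while no 0 h library exceeds 0.0541 CPM.

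Lhx1 is a LIM-homeodomain factor needed in the anterior streak and visceral endoderm for the formation of the head. In iFoxA1 at 24 h it was at 69.4, 70.2 and 4.97 CPM, the last in the second-set library, and at 0 CPM in both libraries at 0 h. In the other lines at 24 h it was at 1.29 and 2.01 CPM in iFoxC1, 0.0504 and 0.261 CPM in iFoxG1, 2.90 and 0.376 CPM in iFoxL2, and 0.387 and 0.0916 CPM in iFoxP3. All 3 iFoxA1 libraries were above all 8 of the others, and no 0 h library of any line had more than 1 count. In counts, iFoxA1 had 2875 at 24 h and 0 at 0 h, which is at least 549-fold higher against a floor of 3 counts over the 0 h group. Without the second-set library, which is the lowest of the 3, the same bound was at least 967-fold. iFoxC1, with 94 counts at 24 h and 0 at 0 h, was at least 12.2-fold higher at 24 h. In iFoxL2 the ratio of 24 h to 0 h was 24.7 (95% exact counting interval 4.29 to 991, 69 against 1 counts), and without the second-set library it was 53.5 (9.23 to 2151, 57 against 1 counts). Counting error is all that these floors and intervals cover. Over the 5 lines with equal weight the fitted log2 change was 5.99 ± 1.34 (SE), with an adjusted p of 0.00831 by edgeR's quasi-likelihood test with Benjamini-Hochberg adjustment, and its size depends on how the model treats the libraries at 0. In that comparison 37.8% of all genes tested were called, 21.7% higher and 16.1% lower, and 3 of the 9 tested genes described here were, 2 higher and 1 lower. At 24 h, iFoxA1 exceeded the mean of the 4 other lines by 6.40 ± 0.82 on the log2 scale (SE, edgeR adjusted p = 0.00143). In the first library set alone this difference was 7.04 ± 0.10 (edgeR adjusted p = 1.12e-08), with the spread taken from the iFoxA1 pairs only. The average change lost its call when iFoxG1 24 h replicate 2 was left out (5.63, edgeR adjusted p = 0.0946).

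The deposited table splits Lhx1 over 4 annotated transcripts. The longest coding one, Lhx1-201, held 1350 and 1241 estimated counts in the first-set iFoxA1 libraries at 24 h. A shorter coding transcript held 41.6 and 42.4 in the same 2 libraries. In the second-set iFoxA1 library Lhx1-201 held 162.5 counts and the shorter one held 0. The levels in iFoxA1 thus come mostly from Lhx1-201 in all 3 libraries.

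Cer1 encodes a secreted inhibitor of Nodal, BMP and Wnt ligands made by anterior endoderm. It was at 3.92, 4.19 and 0.355 CPM in iFoxA1 at 24 h, against 0.0957 and 0 CPM in iFoxA1 at 0 h. Of the other lines at 24 h, iFoxC1 was highest, at 0.893 and 0.590 CPM. iFoxG1 was at 0.101 and 0.0290 CPM, iFoxL2 at 0.203 and 0 CPM, and iFoxP3 at 0 CPM in both libraries. The second-set iFoxA1 library thus lay below both iFoxC1 libraries, so the groups overlap. Pooled over libraries, the ratio of 24 h to 0 h in iFoxA1 was 48.4 (95% exact counting interval 13.2 to 403, 169 against 2 counts), and without the second-set library it was 84.1 (22.9 to 701, 157 against 2 counts). iFoxC1 had 38 counts at 24 h and 0 at 0 h, at least 4.94-fold higher at 24 h. In iFoxA1 against the other lines at 24 h the log2 difference was 5.34 ± 0.96 (SE, edgeR adjusted p = 0.00687), and in the first set alone it was 5.28 ± 0.44 (edgeR adjusted p = 2.06e-05). The fitted change within iFoxA1, 5.72, missed the threshold (edgeR adjusted p = 0.0659), and without the second-set library of that line it was 6.25 and passed (edgeR adjusted p = 0.0226). It also passed without iFoxL2 24 h replicate 1 or 2 (edgeR adjusted p = 0.0371 or 0.0368) and in 6 of 7 other alternatives, among them the unfiltered fit of all libraries (5.71, edgeR adjusted p = 0.0294) and DESeq2 (5.89, adjusted p = 0.0217). The average change, with a fitted log2 value of 3.45, did not pass in edgeR (adjusted p = 0.9999), and it passed without the iFoxP3 0 h library (5.17, edgeR adjusted p = 0.0382) and in DESeq2 (3.08, adjusted p = 0.0439). Lines with 0 counts at a time leave this average poorly determined.

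Prox1 is a homeodomain factor known for lymphatic, liver and lens development. In iFoxA1 it was at 5.01, 4.67 and 2.07 CPM at 24 h, against 0.478 and 0.532 CPM at 0 h. In iFoxC1 it was at 1.24 and 1.71 CPM at 24 h and 0.332 CPM at 0 h, and in iFoxG1 at 0.957 and 0.987 CPM at 24 h and 0.308 CPM at 0 h. iFoxL2 had 1.68 and 0.313 CPM at 24 h and 0.216 CPM at 0 h, and iFoxP3 0.339 and 0.244 CPM at 24 h and 0.149 CPM at 0 h. In every line each 24 h library was above the 0 h libraries of that line. Pooled over libraries the 24 h to 0 h ratio ran from 7.04 in iFoxA1 (95% exact counting interval 4.51 to 11.6) to 1.89 in iFoxP3 (0.533 to 10.2, 15 against 3 counts). The average log2 change was 1.96 ± 0.42 (SE, edgeR adjusted p = 0.00579). At 24 h iFoxA1 exceeded the other lines by 2.28 ± 0.42 (SE, edgeR adjusted p = 0.00613), and by 2.43 ± 0.20 in the first set alone (edgeR adjusted p = 2.11e-05). Prox1 was the only 1 of the 3 that was also higher in both iFoxA1 libraries at 0 h than in the 4 other 0 h libraries, an ordering that 18.6% of all tested genes showed. The antisense gene Prox1os, which overlaps Prox1, was at 0.0992 CPM or less in every library.

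At 24 h, iFoxA1 against the other lines thus called 3 of the 9 tested genes, all higher, where 15.1% of all genes were called, 8.88% higher and 6.24% lower. In Lhx1 and Prox1 all 3 iFoxA1 libraries were above the 8 others, which held for 6.04% of all genes. Within iFoxA1, 24 h against 0 h called Lhx1 and Prox1 (10.8% of all genes were called). Lhx1 lost that call without either iFoxA1 0 h replicate (edgeR adjusted p = 0.092 without replicate 1 and 0.0872 without replicate 2). Prox1 lost it without either 0 h replicate (0.2097 and 0.183) or without 24 h replicate 1 or 2 (0.0716 and 0.0683). These comparisons share the 24 h libraries of iFoxA1. An F test of whether the 5 changes differ called 0 of the 9 genes and 1.00% of all genes, with 2 genes at an unadjusted p under 0.05 in edgeR, while DESeq2 called Lhx1 (adjusted p = 0.0395, 8.24% of all genes called). This depended on the libraries used. In edgeR the first set alone called Lhx1, Eomes and T, where 50.9% of all genes were called, and T was called without the low-transgene libraries (21.0% of all genes) and without iFoxL2 24 h replicate 1 (5.34% of all genes).

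**Figure D2:**
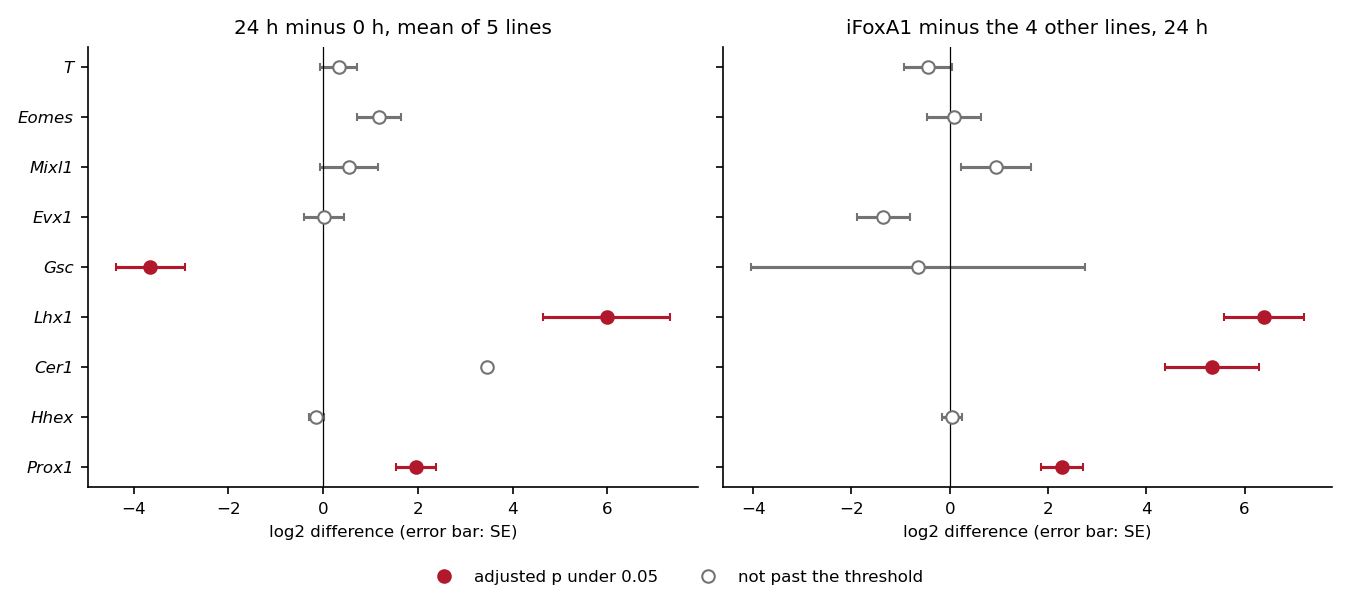
Fitted log2 differences of the 9 tested genes, 24 h minus 0 h over the mean of the 5 lines on the left and iFoxA1 minus the 4 other lines at 24 h on the right, with the SE as error bar. Filled points passed an adjusted p of 0.05 in edgeR; the SE of Cer1 on the left runs far beyond the axis and is not drawn, and Gsc lies at -3.65 on the left.

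Gsc, the homeodomain factor of the organiser and prechordal plate, went the other way. At 24 h it was at 0.0992, 0 and 0 CPM in iFoxA1, 0.0496 and 0.0885 CPM in iFoxC1, 0.151 and 0.116 CPM in iFoxG1, 0 and 0.282 CPM in iFoxL2, and 0 CPM in both libraries of iFoxP3. At 0 h it was at 0.718 and 0.968 CPM in iFoxA1, 1.90 CPM in iFoxC1, 0.257 CPM in iFoxG1, 0.433 CPM in iFoxL2 and 0.496 CPM in iFoxP3. In each line every 24 h library was below the 0 h libraries of that line, and among all libraries only iFoxL2 24 h replicate 2, at 0.282 CPM, was above the lowest 0 h library. The ratio of 24 h to 0 h was 0.0327 in iFoxA1 (95% exact counting interval 0.00381 to 0.127, 2 against 35 counts), or 0.0613 without the second-set library (0.00714 to 0.238), and 0.0390 in iFoxC1 (0.0101 to 0.108, 4 against 40 counts). iFoxP3, with 0 counts at 24 h and 10 at 0 h, was at least 8.84-fold lower at 24 h, or at least 3.42-fold lower without the second-set library. The average log2 change was -3.65 ± 0.72 (SE, edgeR adjusted p = 0.00477). It kept its call with each of the 17 libraries left out in turn, at -4.63 to -2.92.

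Eomes, a T-box factor of the streak and of trophoblast, was, like Hhex, above 1 CPM in 17 of 17 libraries. At 24 h it was at 6.60, 7.58 and 22.0 CPM in iFoxA1, 12.6 and 14.8 CPM in iFoxC1, 5.09 and 7.35 CPM in iFoxG1, 4.02 and 35.7 CPM in iFoxL2, and 10.8 and 8.97 CPM in iFoxP3. At 0 h the libraries were between 3.14 and 7.25 CPM. The 2 highest libraries were those of iFoxA1 and iFoxL2 in the second set, which are also the 2 with the lower transgene level in their line. There Eomes was 3.10 times the first-set level in iFoxA1 and 8.89 times it in iFoxL2, while in the other lines this ratio was 0.828 to 1.44. In the same 2 libraries the ES cell markers stood at the 0 h level, and 24 other primitive streak and nascent mesoderm genes were summed at 1177 and 1295 CPM, against 290 to 446 CPM in the 9 others at 24 h and 736 to 1080 CPM at 0 h. Tdgf1 is in both of these lists, so the 2 sums share a gene. The sum was not high for streak genes alone. A list of 24 other anterior mesendoderm, node and definitive endoderm genes was at 730 CPM in that iFoxA1 library and 694 CPM in that of iFoxL2. The 9 others at 24 h were at 208 to 551 CPM and the 0 h libraries at 374 to 610 CPM. The part of the library set, of the transgene level and of these markers in the level of Eomes was not tested. The average log2 change of 1.18 ± 0.46 (SE) missed the threshold (edgeR adjusted p = 0.0722). It passed in 4 of 7 other alternatives, among them the fit of all libraries with no filter on low counts (1.22, edgeR adjusted p = 0.0379) and DESeq2 (1.16, adjusted p = 0.0160). Without those 2 libraries it was smaller, 0.57 ± 0.12, and passed (edgeR adjusted p = 0.00584). Without iFoxL2 24 h replicate 1 alone it was 1.35 and passed (edgeR adjusted p = 0.00735). Trophoblast markers were summed at 48.6 to 185 CPM at 24 h and 58.3 to 115 CPM at 0 h, with Prl3d1 at 0 in every library. Their part in the level of Eomes was not tested. The antisense gene Gm33460 overlaps Eomes (chr9:118478212-118486132, plus strand) and was at 0.0296 to 0.484 CPM. The strand setting of the counting is not stated here.

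**Figure D3:**
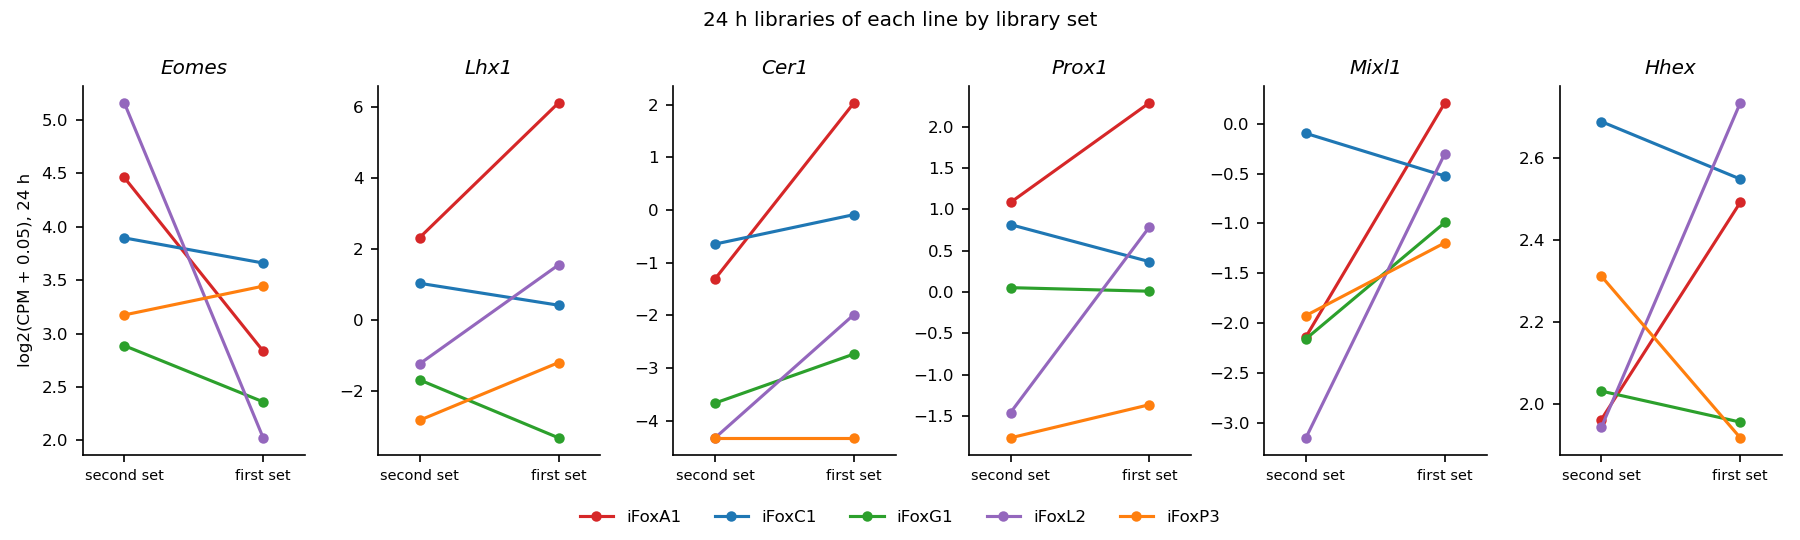
Levels at 24 h on a log2(CPM + 0.05) scale for 6 of the genes, with the second-set library of each line on the left and its first-set level on the right, joined by a line; for iFoxA1 the first-set level is the mean of 2 libraries. In iFoxA1, Lhx1, Cer1, Prox1 and Mixl1 were lower in the second-set library and Eomes was higher, while in iFoxC1 the second-set level of these 6 genes was 0.661 to 1.55 times the first-set level.

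Mixl1, a homeodomain factor of the streak that acts with Nodal signalling, was at 1.19, 1.02 and 0.177 CPM in iFoxA1 at 24 h, against 0.239 and 0.484 CPM at 0 h. In iFoxC1 it was at 0.645 and 0.885 CPM at 24 h, against 0.379 CPM at 0 h. In iFoxL2 it was at 0.762 and 0.0627 CPM at 24 h, against 0.325 CPM at 0 h. iFoxG1 had 0.453 and 0.174 CPM at 24 h, against 0.206 CPM at 0 h, and iFoxP3 had 0.387 and 0.214 CPM at 24 h, against 0.347 CPM at 0 h. The second-set library was below the first-set level in 4 of the 5 lines, at 0.160 times it in iFoxA1, 0.0822 in iFoxL2, 0.385 in iFoxG1 and 0.552 in iFoxP3, and above it in iFoxC1, at 1.37 times. The average log2 change of 0.54 ± 0.61 (SE) did not pass (edgeR adjusted p = 0.521), and in the first set alone, at 0.97, it did (edgeR adjusted p = 0.0299).

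T, the T-box factor of the nascent mesoderm and notochord, was between 1 and 52 counts in every library. iFoxP3 was at 1.84 and 1.59 CPM at 24 h and 0.397 CPM at 0 h, and these 2 libraries were the highest of the 17. iFoxC1 was at 0.298 and 0.324 CPM at 24 h and 0.0474 CPM at 0 h, a single count. iFoxA1 was at 0.496, 0.215 and 0.384 CPM at 24 h, against 0.766 and 0.774 CPM at 0 h, and iFoxL2 at 0.407 and 0.0627 CPM at 24 h, against 0.812 CPM at 0 h. iFoxG1 was at 0.604 and 0.436 CPM at 24 h, on both sides of its 0.565 CPM at 0 h. In iFoxP3 the 24 h to 0 h ratio was 4.24 (95% exact counting interval 2.06 to 10.1, 90 against 8 counts), and in iFoxL2 it was 0.239 (0.0960 to 0.569, 10 against 15 counts). Without the second-set library, which held 2 of the 10 counts, the ratio in iFoxL2 was 0.501 (0.184 to 1.26). iFoxP3 exceeded the other lines at 24 h by 2.32 ± 0.46 on the log2 scale (SE), which missed the threshold (edgeR adjusted p = 0.0760, with 0.561% of all genes called). Without iFoxL2 24 h replicate 1 or 2 the difference was 2.76 or 2.10 and passed (edgeR adjusted p = 0.00644 or 0.0190). With both low-transgene libraries left out it was 2.12 (edgeR adjusted p = 0.00690), 1 of 4 passes in 7 other alternatives. The F test of the difference among the 5 changes gave an edgeR adjusted p of 0.271 for T, and 0.0360, 0.0380 and 0.0310 in the first set alone, without the low-transgene libraries and without iFoxL2 24 h replicate 1.

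Evx1, a homeodomain factor of the posterior streak, was at 0.744 and 1.59 CPM in iFoxC1 at 24 h and 0.0948 CPM at 0 h. In the other lines at 24 h it was at 0.0496 to 0.252 CPM, and at 0 h it was at 0.199 to 0.411 CPM, so both iFoxC1 libraries stood above all others. iFoxC1 exceeded the other lines at 24 h by 2.75 ± 0.46 on the log2 scale (SE, edgeR adjusted p = 0.0104), 1 called of the 9 genes in a comparison where 3.69% of all genes were called and 2.41% were higher. Without iFoxC1 24 h replicate 2 the difference was 2.05 and was no longer called (edgeR adjusted p = 0.350). DESeq2 gave a log2 difference of 2.77 with no adjusted p. The ratio of 24 h to 0 h in iFoxC1 was 13.5 (95% exact counting interval 3.59 to 113, 69 against 2 counts), and 7.85 without the second-set library (1.83 to 70.7, 15 against 2 counts). The change within iFoxC1, a log2 value of 3.56, missed the threshold (edgeR adjusted p = 0.0605). It passed with iFoxA1 24 h replicate 3 left out (0.0399), and likewise with iFoxL2 24 h replicate 1 or 2 left out (0.0418 or 0.0446). The antisense gene Evx1os overlaps Evx1 and was also highest in iFoxC1 at 24 h, at 0.236 and 0.694 CPM (22 counts), against 0 to 0.125 CPM in the other lines at 24 h. Reads of Evx1 and Evx1os cannot be told apart where the strand setting of the counting is unknown.

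Hhex, a homeodomain repressor of anterior endoderm and later of liver and blood vessels, was the steadiest, at 3.73 to 6.61 CPM at 24 h and 4.86 to 6.97 CPM at 0 h, with overlapping groups. Its average log2 change was -0.15 ± 0.16 (SE, edgeR adjusted p = 0.5002). The split over its transcripts did differ by library set. Hhex-202, the shorter of 2 transcripts in the table, was above 0 in 4 of 5 second-set libraries, in 0 of 6 first-set libraries at 24 h and in 1 of 6 at 0 h. Mesp1, a bHLH factor of the earliest mesoderm, was at 0 to 6 counts per library, at most 0.183 CPM at 24 h and 0.143 CPM at 0 h. The floor of 3 counts corresponds to 0.0807 to 0.170 CPM in the 24 h libraries and 0.135 to 0.160 CPM in the 0 h libraries, so differences in Mesp1 were not detectable at this depth.

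On a scale per transcript length (TPM), the highest of the 10 at 24 h was Lhx1, at 5.86 ± 11.9 TPM (SD, n = 11), followed by Hhex at 4.17 ± 1.39 TPM and Eomes at 4.12 ± 2.28 TPM. The SD of Lhx1 exceeds its mean, and its place rests on iFoxA1, where it was at 20.6 ± 16.0 TPM (SD, n = 3). Cer1 was at 0.749 ± 1.3 TPM and the 6 others were below 0.5 TPM at 24 h. At 0 h the order was Hhex at 4.58 ± 0.97 TPM (SD, n = 6), Eomes at 2.22 ± 0.90 TPM, Gsc at 1.04 ± 0.84 TPM and T at 0.398 ± 0.232 TPM, with Lhx1 last at 0.0116 ± 0.0154 TPM. Neighbours in these orders differed by less than the larger of their SDs, other than Eomes above Cer1 at 24 h and, at 0 h, Hhex above Eomes, Eomes above Gsc and Prox1 above Cer1.

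Lhx1, Cer1 and Prox1 also varied together over the 17 libraries, with Pearson correlations of log2 CPM of 0.91 for Lhx1 and Cer1, 0.89 for Lhx1 and Prox1, and 0.90 for Cer1 and Prox1. Mixl1 followed Cer1 at 0.73, while T, Eomes and Evx1 were correlated with Lhx1 at -0.21, 0.23 and -0.26. These libraries share time, medium and set, so the correlations are a description. Of 10876 protein-coding genes searched, those most like Lhx1 were Mia3 (0.954), Rock2 (0.953) and Atp8a2 (0.950). Those most like Cer1 were Plat (0.942), Rock2 (0.931) and Shh (0.931), and those most like Prox1 were Plat (0.946), Mrtfb (0.930) and Pdzrn3 (0.926). For Eomes they were Pltp (0.913), Irak1 (0.901) and Gtf2ird1 (0.899), and for Gsc they were Hap1 (0.909), Serpinb1a (0.906) and Ddc (0.901). For T the nearest gene was Alox5ap (0.846), for Mixl1 Rdh10 (0.881), for Evx1 Prcc (0.828) and for Hhex Mcfd2 (0.862).

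Genes of the same programmes were described from a list of 24 anterior mesendoderm, node and definitive endoderm genes, 22 of which were tested. At 24 h in iFoxA1 against the other lines, 13 were called higher and 0 lower (8.88% and 6.24% of all genes), with a median log2 difference of 2.34 over the list and 0.0098 over all genes. Gata6 (log2 difference 4.27), Chrd (2.44) and Gata4 (3.89) were among those with the lowest adjusted p. Gata4 and Gata6 are zinc-finger factors of endoderm and heart, and Chrd encodes the BMP antagonist chordin. The 13 fall into genes that were already higher in iFoxA1 at 0 h and genes that were not. In 7 of the 13, both iFoxA1 libraries at 0 h were above the 4 others, an ordering that 18.6% of all tested genes showed. Gata4 was at 9.74 ± 0.83 CPM in iFoxA1 at 24 h (SD, n = 3) and 12.92 to 13.07 CPM at 0 h, against 0.201 to 2.04 CPM in the other lines at 24 h and 0.360 to 1.03 CPM at 0 h. Chrd, the BMP antagonist of the node, was at 8.69 to 17.2 CPM in iFoxA1 at 24 h and 1.12 to 5.05 CPM in the other lines, while at 0 h it was at 1.89 to 2.44 CPM in iFoxA1 and 1.24 to 2.77 CPM in the others. Shh, the signalling protein of node and notochord and a gene most like Cer1 above, was at 7.63 to 59.5 CPM in iFoxA1 at 24 h and at most 0.767 CPM in the other lines, with 0 or 1 count in each library of iFoxA1 at 0 h. Its count of 2546 at 24 h against 1 at 0 h in iFoxA1 gives a ratio of 1458 (95% exact counting interval 261 to 57600), and without the second-set library 2452 (440 to 96900). In Lhx1, Cer1, Shh and Chrd the 0 h libraries of iFoxA1 did not both lie above those of the other lines. Most tested genes were like this, as 18.6% showed that ordering. With 0 to 2 counts in each iFoxA1 library at 0 h, Lhx1, Cer1 and Shh could hardly have shown it.

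**Figure D4:**
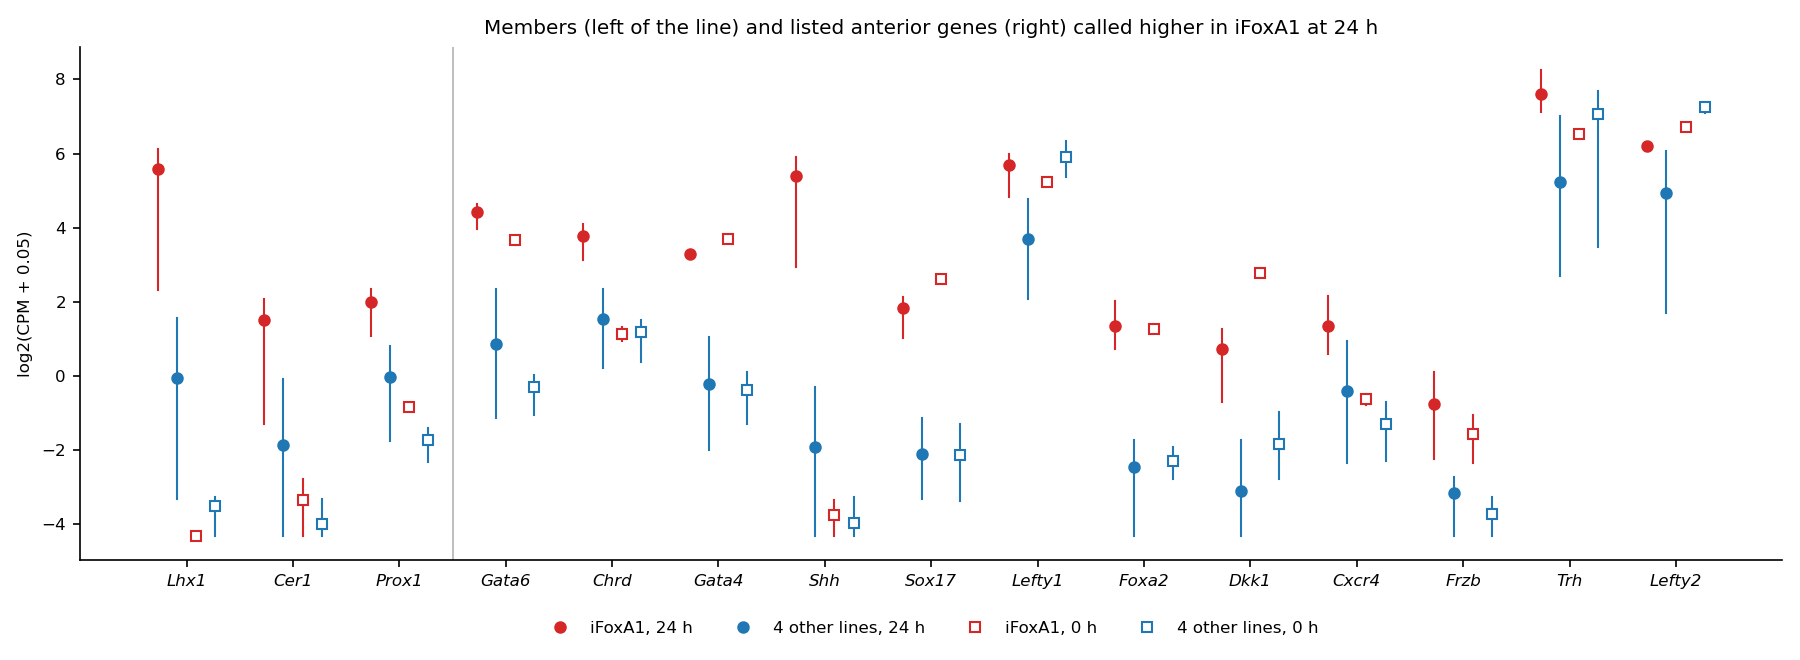
Mean level on a log2(CPM + 0.05) scale, with the range over libraries as a vertical line, for Lhx1, Cer1 and Prox1 and for 12 of the 13 listed anterior genes called higher in iFoxA1 at 24 h. Filled circles are 24 h and open squares 0 h, in red for iFoxA1 and blue for the 4 other lines; Gata4 at 0 h is already apart in iFoxA1 while Lhx1, Cer1 and Shh lie near 0 counts at 0 h in all lines.

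Primitive and visceral endoderm markers moved with the iFoxA1 line at both times. Their summed level was 954 to 1048 CPM in iFoxA1 and 356 to 636 CPM in the other lines at 24 h, and 1041 to 1042 CPM in iFoxA1 and 396 to 573 CPM in the other lines at 0 h. Of 13 tested markers, 10 were called higher in iFoxA1 at 24 h, where 8.88% of all genes were. Already at 0 h, 9 of those 10 were above the other lines, an ordering that 18.6% of all tested genes showed. Of 15 markers listed, 3, Sox17, Gata4 and Gata6, are also in the anterior list. In the other lines Apoa4 was at 0 at 24 h, and Afp and Apoa4 were at 0 at 0 h. Visceral endoderm itself makes Lhx1, Cer1 and Hhex, and the part of such cells in the levels of these genes was not tested. Fewer cells of a type and less RNA per cell cannot be told apart in these bulk libraries. Of the remaining markers of other cells, endothelial markers were summed at 62.7 to 141 CPM at 24 h and 102 to 181 CPM at 0 h, with Emcn at 0. Early neural markers were summed at 34.1 to 72.6 CPM at 24 h and 84.8 to 126 CPM at 0 h, and fibroblast markers at 8.25 to 19.1 CPM at 24 h and 6.45 to 12.7 CPM at 0 h.

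For the average change, the anterior list had 5 of 22 genes called higher and 6 lower at 24 h, where 21.7% of all genes were called higher and 16.1% lower. Otx2, a homeodomain factor of anterior neural tissue and epiblast, rose by a log2 change of 2.86 and Cldn6, an epithelial claudin, by 1.51, while Sfrp1, a Wnt antagonist, fell by 2.70 and the Nodal antagonists Lefty2 and Lefty1 fell by 2.39 and 1.87. A list of 24 primitive streak and nascent mesoderm genes, with 22 tested, had 8 called higher and 4 lower in the average change, with a median log2 change of 0.64 against 0.04 over all genes. The median was 0.33 in the first library set alone, where 9 of 21 were higher and 7 lower, against 31.8% and 31.4% of all genes. Kdr, a VEGF receptor, rose by 3.24, the retinoic acid hydroxylase Cyp26a1 by 3.71, and the Notch ligands Dll1 and Dll3 by 2.44 and 1.56. Wnt3a, a ligand of the streak, fell by 3.53, the Wnt target Sp5 by 2.15, the T-box factor Tbx3 by 2.13 and Wnt5b by 1.05. In iFoxA1 against the other lines at 24 h, 3 of 22 streak genes were higher and 3 lower, where 8.88% of all genes were higher and 6.24% lower. Without the low-transgene libraries 4 of 21 were higher and 8 lower, against 15.6% and 17.3% of all genes, with a median log2 difference of -0.64 in place of 0.21. The higher ones were Pdgfra, a receptor of mesoderm and of primitive endoderm (3.42), Rspo3 (2.65) and Cyp26a1 (1.12). All 3 were already above the other lines in both iFoxA1 libraries at 0 h, an ordering that 18.6% of all tested genes showed. The lower ones were Wnt3a (-3.36), Zeb2 (-1.44) and Dll3 (-1.38).

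In the other comparisons the 9 genes were called rarely. Within iFoxC1, iFoxG1, iFoxL2 and iFoxP3, 24 h against 0 h called 0 of them in edgeR, with 2, 0, 1 and 2 at an unadjusted p under 0.05, where 9.73%, 5.64%, 4.23% and 6.05% of all genes were called. DESeq2 called 1, 0, 0 and 0, the 1 in iFoxC1 being Lhx1, where it called 15.5%, 10.4%, 9.38% and 12.0% of all genes. iFoxG1, iFoxL2 and iFoxP3 against the other lines at 24 h called 0 in edgeR, with 1, 0 and 4 at an unadjusted p under 0.05, where 2.74%, 1.64% and 0.561% of all genes were called, and DESeq2 called 1, 0 and 1, which were Lhx1, lower in iFoxG1, and Prox1, lower in iFoxP3. Of all genes, DESeq2 called 5.20%, 5.79% and 2.34% in these 3 comparisons. Among lines at 0 h, 0 of 9 were called by either tool and 0 had an unadjusted p under 0.05 in edgeR. Of all genes, 0.495% were called there in edgeR and 6.29% in DESeq2. For lines with 1 library at 0 h, that library was taken to vary as much as the replicated groups did.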

How the data were processed

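Poly(A) RNA of 17 libraries was measured by strand-specific RNA-seq. The authors quantified transcripts with Salmon 1.4.0, per the submitters' processing notes, which also list DESeq2 1.30.1 and the mm10 build; the annotation and strand setting are not given in the sources used here. They deposited estimated counts per transcript, not normalised, with a matching table of TPM, in which transcript length and library total are divided out. Of 137271 transcripts, 137225 were matched by identifier to GENCODE M21 (136349 with the version); the 46 others held at most 0.0133% of a library's counts and were left out.

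Estimated counts were summed per gene symbol, rounded to whole numbers, filtered with filterByExpr, scaled with TMM then tested by quasi-likelihood in edgeR 4.0.16 under R 4.3.3, with 10 groups, leaving 7 residual degrees of freedom. CPM is the count scaled to the TMM-adjusted library total. The contrasts were the change within each line, their equal-weight average, the difference among them, each line against the mean of the 4 others at 24 h, and the difference among lines at 0 h. Adjusted p-values of the main fit are over all 19796 genes, and those of each alternative over the genes it tested. The threshold was 0.05. SE is derived from the F statistic. Alternatives were DESeq2 1.42.0, its size factors, no filter, a library set term, the first set alone, a replicate block, the 2 low-transgene libraries left out, and each library left out. On simulated data for the average change, 19026 genes were tested. Of genes changed by 1, 2 and 3 on the log2 scale, 50.7%, 94.0% and 93.9% were recovered, and 3.05% of calls were false. Changed genes were drawn only from those above a limit on mean CPM, and no line or library set effect was simulated. The recovery and false-call rates are not split by count level or library set. Whether they hold for genes of a few counts per library, or for groups at 0 counts, was not tested.

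The 10 genes, the lists and the tests were chosen with earlier results of these data known. All 10 are named. From each pathway list up to 4 genes per direction with the lowest adjusted p were named in the average change and in iFoxA1 against the others; the 3 most alike genes are protein-coding, with a group mean of at least 5 CPM, by correlation of log2 CPM (prior count 2). 1 listed gene is not reported here. The details given for Shh were chosen after its values were seen. Promoter windows come from RefSeq (GRCm38.p6), with no window used here for Mixl1. Depth limits genes of a few counts per library most.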

Additional observations from a re-analysis of the deposited data

Results flagged for a closer look

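For T, Evx1, Cer1 and Mesp1, every 24 h library lay above 0 h in some lines and below it in others. The share of all genes with such an ordering is not given here, so how common it is cannot be said. For T, both 24 h libraries were above the 0 h library in iFoxC1, with a pooled 24 h to 0 h ratio of 6.63 (17 against 1 counts), and in iFoxP3, with a ratio of 4.24 (90 against 8 counts). All 24 h libraries were below the 0 h libraries in iFoxA1, with a ratio of 0.483 (27 against 32 counts), and in iFoxL2, with a ratio of 0.239 (10 against 15 counts), or 0.501 without the second-set library. The test of the difference among the 5 changes did not pass for T (F test in edgeR, adjusted p = 0.271), though it did in the first set alone, without the low-transgene libraries and without iFoxL2 24 h replicate 1 (0.0360, 0.0380 and 0.0310). The 24 h libraries of Evx1 were above 0 h in iFoxC1, with a ratio of 13.5 (69 against 2 counts), and in iFoxP3, with a ratio of 1.13 (12 against 4 counts). They were below it in iFoxA1, iFoxG1 and iFoxL2, with ratios of 0.396, 0.448 and 0.461. Without the second-set libraries the Evx1 ratio was 7.85 in iFoxC1, 0.247 in iFoxA1 and 0.268 in iFoxL2. Cer1 was above 0 h in iFoxA1, with a ratio of 48.4, in iFoxC1 (38 against 0 counts) and in iFoxG1 (3 against 0 counts), and below it in iFoxP3, on 0 counts at 24 h against 1 at 0 h. Mesp1 was above 0 h in iFoxG1, with a ratio of 2.51, in iFoxP3, with a ratio of 3.39, and in iFoxL2 (5 against 0 counts), and below it in iFoxC1 (1 against 2 counts). Most of these sides rest on a few counts, the line pairs were not tested on their own, and the 0 h side of every line but iFoxA1 is 1 library.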

How the results depend on the processing

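Lhx1, Cer1 and Prox1 remained called in iFoxA1 against the others at 24 h in all 24 alternatives run, and Gsc kept its fall and Prox1 its rise in the average change in all 24. Counts over the 9 genes moved elsewhere. With DESeq2, 4 rose and 1 fell in the average change (2 and 1 in edgeR). It called 4 within iFoxA1 (2), 1 within iFoxC1 (0) and 1 in the difference among changes (0). Against the others it called 0 in iFoxC1 (1) and 1 each in iFoxG1 and iFoxP3 (0). Of all genes, DESeq2 called 40.1% in the average change, in either direction. It called 14.7% within iFoxA1, 15.5% within iFoxC1 and 8.24% in the difference among changes. Against the others it called 6.87% in iFoxC1, 5.20% in iFoxG1 and 2.34% in iFoxP3. With no filter all 10 genes were tested, and 4 were called within iFoxA1. There 4.17% of 37118 genes were called, a set that keeps genes of low counts, against 10.8% of 19796 in the main fit. With the library set as a term, 4 were called within iFoxA1, 3 within iFoxC1, 2 in iFoxC1 and 1 in iFoxP3 against the others. In that order, 18.4%, 18.8%, 8.39% and 1.79% of all genes were called there. In the first set alone, 4 rose and 1 fell in the average change, and 3 were called in the difference among changes. Within iFoxA1, iFoxC1, iFoxG1, iFoxL2 and iFoxP3, 5, 6, 1, 3 and 4 were called. In iFoxC1, iFoxG1, iFoxL2 and iFoxP3 against the others, 3, 2, 3 and 5 were called, and among lines at 0 h 2 were. There the spread comes from the iFoxA1 pairs only. Of all genes, 63.2% were called in the average change, 31.8% higher and 31.4% lower. Within lines 41.2% to 47.2% were called, and in the difference among changes 50.9%. In those 4 lines against the others it was 17.0% to 30.6%, and among lines at 0 h 54.5%. Without the low-transgene libraries, 4, 7, 1, 2 and 3 were called within the same 5 lines, 1 in the difference among changes, and 3, 1, 1 and 4 in the same 4 lines against the others, where 20.0% to 32.4%, 21.0% and 9.02% to 17.3% of all genes were called. The cause of these differences was not tested.

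Leaving out 1 library gave 1 to 3 that rose in the average change, 0 to 4 called within iFoxA1, 0 to 2 within iFoxC1 and iFoxL2, 0 to 1 within iFoxP3, 0 to 1 in the difference among changes, 0 to 1 in iFoxC1 and 0 to 2 in iFoxL2 and iFoxP3 against the others. For most of these fits the shares over all genes are not given here, so the counts are not set against them. The average change of T ran from -0.24 to 0.86 and that of Evx1 from -0.86 to 0.31, neither called in any alternative. Evx1 was also below 0 with the library set term (-0.27), in the first set alone (-0.26) and without the low-transgene libraries (-0.22). Correlations of deviations from group means at 24 h were 0.491 or more for libraries of the same set. In the 4 lines other than iFoxA1 the replicate number and the set coincide, so pairing by number cannot be told apart from the set there. Between the iFoxA1 replicates at 24 h and 0 h the correlations were 0.041 and 0.003. These cannot decide pairing, because replicate 3 is part of the 24 h deviations. The replicate block gave Evx1 an average change of -0.20 and called 1 of the 9 genes in iFoxP3 against the others, where 1.67% of all genes were called. Over all genes, the counts called moved by more than 1.5 times in several comparisons: the difference among changes called 198 genes in edgeR, 1631 in DESeq2, 958 with the library set term, 9869 in the first set alone and 4126 without the low-transgene libraries. T, Mixl1, Evx1, Gsc, Cer1 and Mesp1 had few counts, so small changes in them were not detectable at this depth.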
